A study of Mus musculus with 6 samples.

Results

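The genes described here are 10 protein-folding genes of the endoplasmic reticulum (ER) that belong to the unfolded protein response: Hspa5, Xbp1, Dnajb9, Herpud1, Sdf2l1, Pdia4, Hsp90b1, Creld2, Manf and Calr. They were taken by symbol from the 32285 genes of the feature tables, and all 10 were present in each of the 6 single-cell RNA libraries of mouse jejunal epithelium. The mice were male wild-type C57BL/6J animals, about 30 weeks old, fed a low-fat diet (LFD) or a high-fat diet (HFD) for 16 weeks, then given a sham operation or, on the high-fat diet, vertical sleeve gastrectomy (VSG, removal of most of the stomach), and sampled 5 weeks after surgery. The groups were LFD sham (3 mice pooled), HFD sham (3 mice pooled) and HFD VSG (2 mice pooled), each split into a crypt and a villus fraction with 1 library per fraction. The question asked of these genes was how their level in secretory cells compared with that in absorptive enterocytes, and whether it differed with diet or surgery.

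Proteins bound for secretion are folded in the ER, and an excess of unfolded protein there activates 3 sensors, IRE1, ATF6 and PERK. IRE1 splices the Xbp1 transcript into the form that encodes an active transcription factor, ATF6 is cut in the Golgi to release another, and PERK slows translation and favours Atf4. Xbp1 and ATF6 drive genes for chaperones, disulfide isomerases and ER-associated degradation, and cells with a heavy secretory load, such as mucus-filled goblet cells and antimicrobial Paneth cells, are known for an enlarged ER and for their need of Xbp1. The splicing of Xbp1 cannot be seen in gene-level counts, so the values for Xbp1 are for all its transcripts together. In the GENCODE annotation of the mm10 genome (GRCm38) the protein-coding genes lie on 9 chromosomes: Hspa5 at chr2:34771970-34777547, Xbp1 at chr11:5520659-5525893, Dnajb9 at chr12:44205559-44210326, Herpud1 at chr8:94386438-94395377, Sdf2l1 at chr16:17130138-17132383, Pdia4 at chr6:47796141-47813430, Hsp90b1 at chr10:86690209-86705509, Creld2 at chr15:88819646-88826683, Manf at chr9:106838312-106891979 and Calr at chr8:84841850-84846934.

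ATF6 and XBP1 are known to bind the ER stress response element (ERSE, letters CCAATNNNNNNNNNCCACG) and its shorter form ERSE-II (ATTGG, any base, then CCACG). Both were searched on both strands from 250 bases before to 50 after each RefSeq transcription start (GRCm38.p6), together with the core of the unfolded protein response element (TGACGTGG). Windows were found for 9 of the 10 genes, and none for Manf. ERSE letters stood in the windows of 4 of these 9 genes, against 0.137% of 27025 genes with a window. ERSE-II letters stood in 1 of the 9, against 0.0444%, and the third motif in 0 of the 9, against 0.714%. These elements are known from this same response, so matches in some of its genes were known to be likely beforehand. The shares are therefore no test of enrichment. The stretches that matched, in 5 of the 9 windows, are shown so that the letters can be compared between genes, and capitals mark the letters of the match. The Hspa5 match lay on the plus strand of chromosome 2 (chr2:34772020-34772048), upstream of the RefSeq start but inside the longer gene span of the GENCODE annotation. The other stretches lay before both annotated gene starts, at chr8:94386367-94386397 for Herpud1, chr10:86705523-86705666 for Hsp90b1 (minus strand), chr15:88819510-88819548 for Creld2 and chr8:84847065-84847103 for Calr (minus strand). Each is printed 5′ to 3′ on its gene's strand, and a match is a description of letters only.
Hspa5: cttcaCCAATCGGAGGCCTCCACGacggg
Herpud1: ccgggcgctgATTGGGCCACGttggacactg
Hsp90b1: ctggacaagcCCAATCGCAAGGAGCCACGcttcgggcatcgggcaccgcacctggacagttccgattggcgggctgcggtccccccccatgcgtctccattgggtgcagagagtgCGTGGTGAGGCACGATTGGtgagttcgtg
Creld2: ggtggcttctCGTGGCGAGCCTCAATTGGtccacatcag
Calr: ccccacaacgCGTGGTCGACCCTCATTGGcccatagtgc

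In Hspa5 and Herpud1 the letters ran in the forward direction and ended 47 and 42 bases before the start. In Creld2 and Calr they ran in reverse, as CGTGG followed by ATTGG. Hsp90b1 was the member with more than 1 match, with a forward copy that began 212 bases before the start and a reverse copy that began 107 bases before it. The windows of Xbp1, Dnajb9, Sdf2l1 and Pdia4 held none of the 3 motifs, which says only that these letters are not in these windows.

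**Figure D1:**
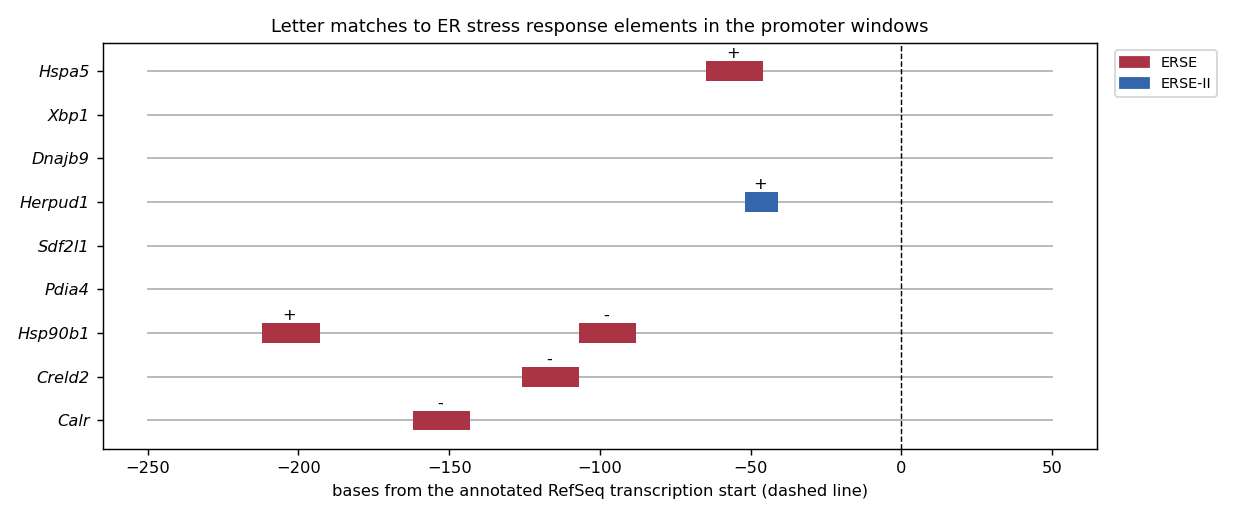
Positions of ERSE and ERSE-II letters in the promoter windows of the 9 genes with a RefSeq window; the x axis is the distance in bases from the annotated start (dashed line) and + or - is the strand relative to the gene. Matches lay between 212 and 42 bases before the start in 5 genes.

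The libraries held 59457 called barcodes, of which 24612 passed the filters (3071 to 4760 per library). Median depth per passing cell was 9516 to 16760 unique molecular identifiers (UMIs, each 1 captured transcript) in 5 libraries and 30557 in HFD VSG villi. Any 2 libraries shared 2 to 13 passing barcodes. Cells were grouped by clustering without the 10 genes or their pathway lists, and clusters were named from marker genes: 11679 enterocyte-like, 1431 goblet-like, 666 Paneth-like, 225 enteroendocrine (EEC)-like, 256 tuft-like and 952 stem-like cells. Another 6946 cells in clusters without a clear name and 1293 immune-like cells were left out of the comparisons. The fraction labels went against the markers, because stem-like cells made up 1.14 to 2.75% of crypt-labelled and 2.50 to 8.93% of villus-labelled libraries, and Paneth-like cells 0.987 to 1.69% and 1.79 to 6.33%. Both were the higher in the villus-labelled library in 3 of 3 groups, as were goblet-like cells (3.42 to 3.72% and 6.81 to 8.70%), and each library keeps the name of its labelled fraction. Levels are CPM, the UMI count of a gene scaled to the total of its class and library and adjusted by the trimmed mean of M values (TMM), and differences are log2 ratios from edgeR with the library as a block and p adjusted over 11592 genes.

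Goblet-like cells held the most transcript of these genes at the median under TMM scaling and under plain totals. Summed over the 10 genes, the level in goblet-like cells was 3862 CPM in the lowest library, 4676 at the median and 5647 in the highest. In Paneth-like cells the sum was 2638, 2873 and 3185, and in enterocyte-like cells 2082, 2561 and 3316. In stem-like cells it was 1059, 1319 and 1628. The goblet-like libraries thus lay above every library of the other classes, the Paneth-like range lay within reach of the enterocyte-like range, and every stem-like library and every tuft-like library (1337, 1772 and 2053) lay below every enterocyte-like library. Sums over EEC-like (1683, 2320 and 2693) and cycling progenitor-like cells (1658, 2088 and 2462) overlapped with those of enterocyte-like cells. With plain totals in place of TMM the goblet-like sums (4322 to 6694) still lay above the enterocyte-like sums (1599 to 2722), but the EEC-like sums (2700 to 4351) reached into the goblet-like range, the Paneth-like sums (836 to 1265) lay below the enterocyte-like ones and the stem-like sums (1151 to 2110) overlapped with them. By plain totals the sums of the unnamed cells (2043 to 3430) lay above the enterocyte-like sum in every library and below every goblet-like sum.

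**Figure D2:**
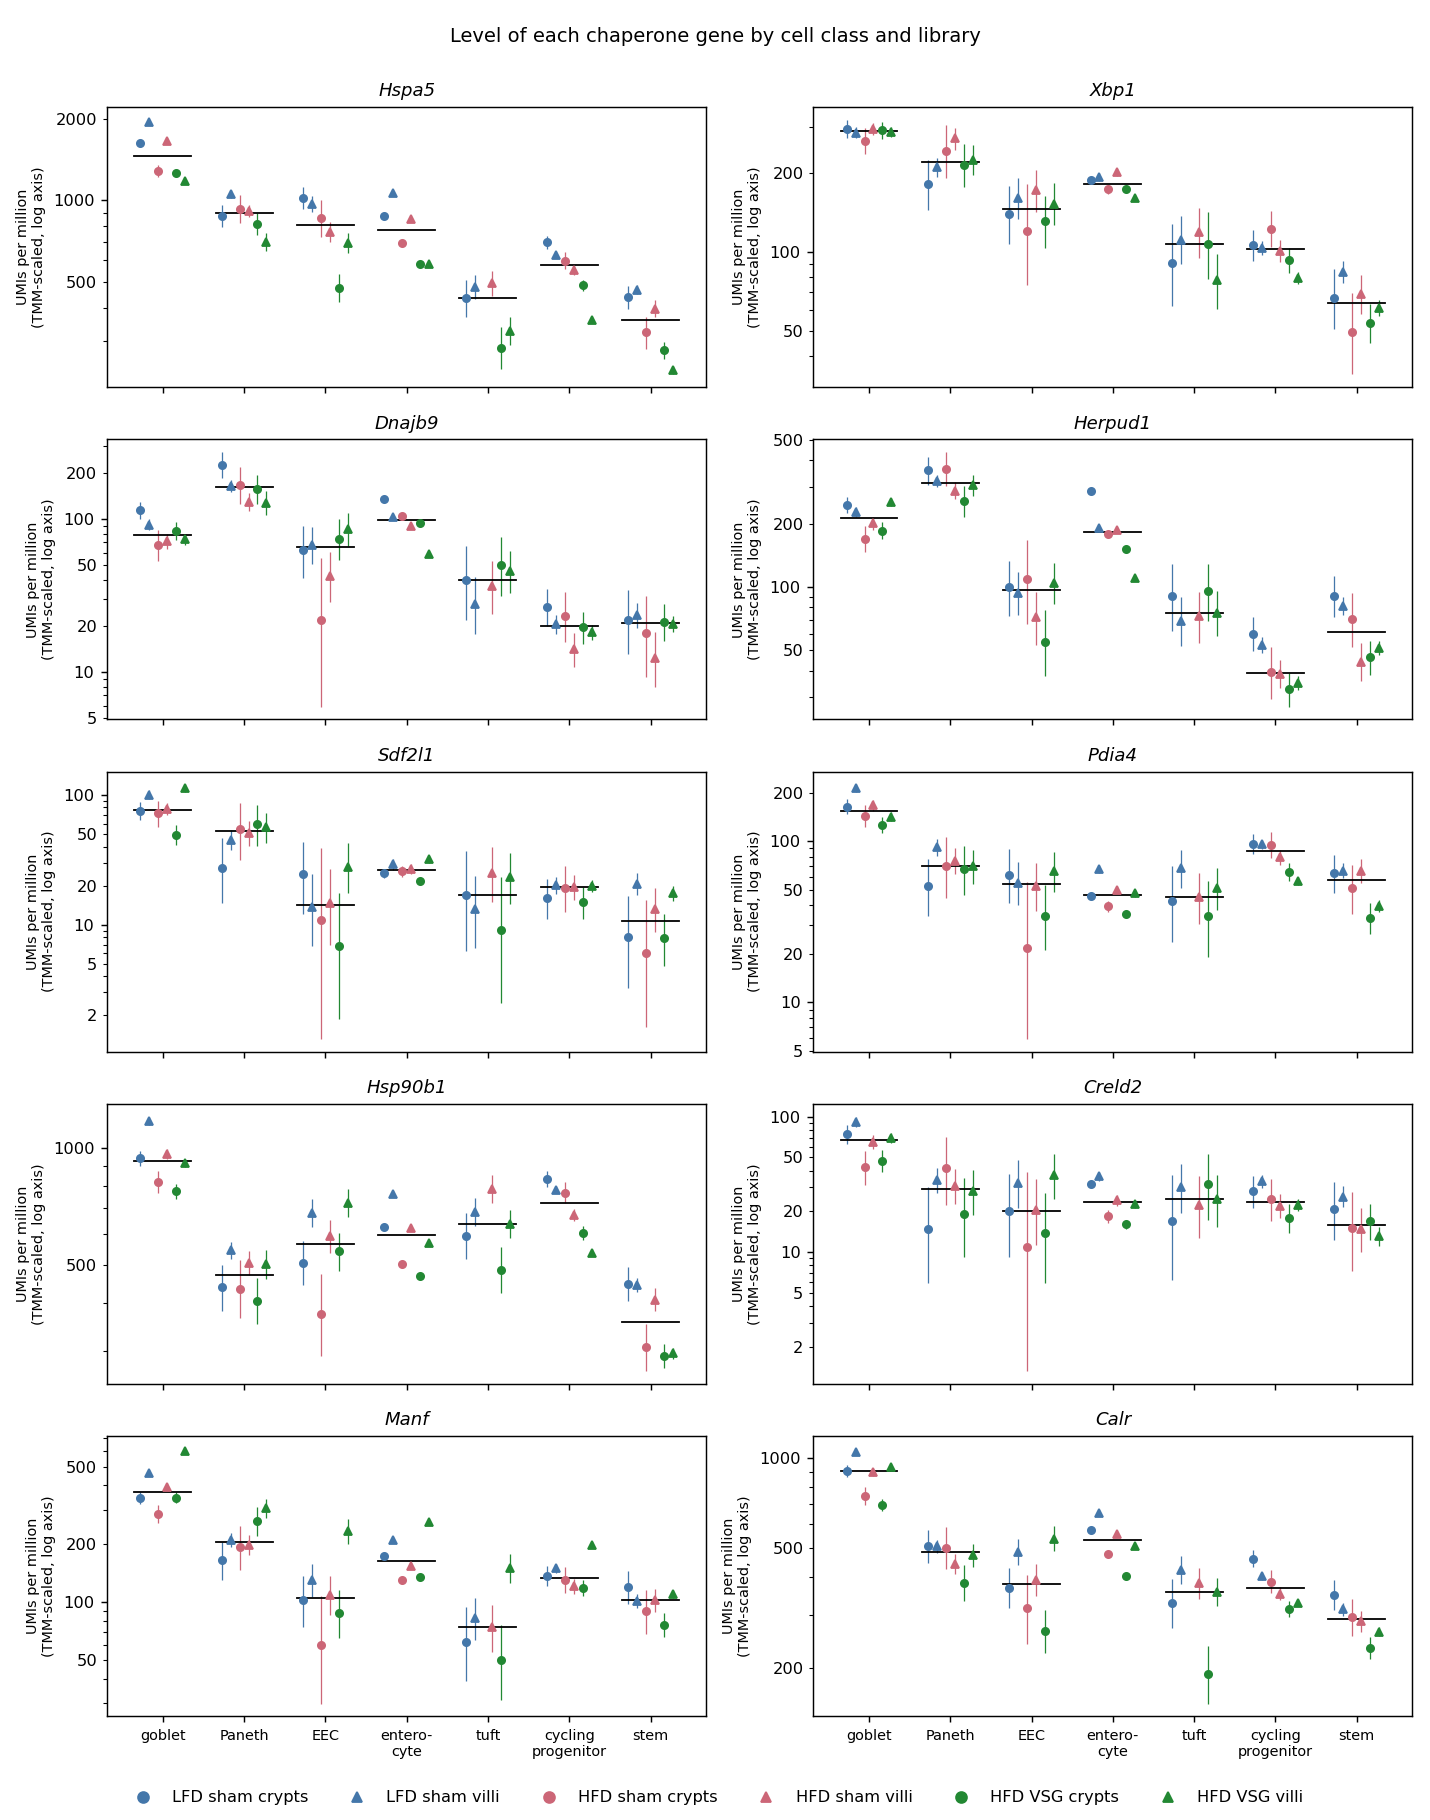
Level of each gene in TMM-scaled CPM (log axis) by cell class; each point is 1 library (colour, diet and surgery; circle, crypt-labelled; triangle, villus-labelled), with its 95% Poisson interval, which covers counting error only, and the black line is the median. Goblet-like points are the highest for 8 genes by median, and Paneth-like points for Dnajb9 and Herpud1.

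Against enterocyte-like cells, 8 of the 10 genes were higher in goblet-like cells and 0 lower, where 40.3% of all genes tested were higher and 37.3% lower. The median log2 ratio was 0.84 over the 10 genes and 0.06 over all genes. Each of the 8 was higher in 6 of 6 libraries with no overlap between the classes, which held for 21.1% of all genes in this direction. By plain totals the range of the unnamed cells, which stayed out, overlapped with the goblet-like range for Hsp90b1 (528 to 928 and 867 to 1394 CPM). For the others of the 8 it lay below the goblet-like range. In an unnamed cluster with enterocyte as its closest class, Hspa5 reached 1338 CPM by plain totals, against 1117 in the lowest goblet-like library. The 6 libraries come from 3 pools of mice and nothing says that the pools are separate experiments, so these p-values measure the spread between libraries. With both fractions of a pool summed, leaving 3 pools, 8 members were higher and 1 (Dnajb9) lower, where 5000 and 4695 of 12870 genes were.

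The widest gap was that of Pdia4. This gene, which encodes a protein disulfide isomerase, ranged over 126, 154 and 213 CPM (lowest, median and highest library) in goblet-like cells and over 35.5, 46.6 and 67.4 in enterocyte-like cells. The ranges did not overlap, and the log2 ratio was 1.75 ± 0.11 (SE, n = 6 libraries; edgeR adjusted p = 2.99e-18). Creld2, an ER protein with disulfide isomerase activity, measured 42.3, 67.3 and 91.9 in goblet-like against 16.0, 23.3 and 36.2 in enterocyte-like cells, again without overlap, a log2 ratio of 1.42 ± 0.13 (edgeR adjusted p = 1.18e-13). Goblet-like cells were the highest class for both genes, and neither range overlapped with that of the next class (cycling progenitor-like for Pdia4, Paneth-like for Creld2).

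Among the chaperones, Hspa5 (BiP, the ER member of the Hsp70 family and the binding partner that holds the sensors inactive) was at 1179, 1460 and 1954 CPM in goblet-like cells and at 582, 775 and 1069 in enterocyte-like cells. Its lowest goblet-like library thus exceeded its highest enterocyte-like library, with a log2 ratio of 0.96 ± 0.11 (edgeR adjusted p = 7.88e-11). Hsp90b1 (Grp94, the ER Hsp90) was at 774, 928 and 1176 against 470, 597 and 761, a log2 ratio of 0.66 ± 0.11. Calr (calreticulin, a lectin chaperone of glycoproteins) was at 698, 901 and 1044 against 404, 532 and 657, a log2 ratio of 0.72 ± 0.10. In neither gene did the classes overlap, although the gap between the highest enterocyte-like and the lowest goblet-like library was narrow for both.

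Of the co-chaperones, Sdf2l1, an ER protein that works with DnaJ co-chaperones of BiP, was at 49.1, 76.5 and 113 CPM in goblet-like and at 21.6, 26.3 and 31.9 in enterocyte-like cells, a log2 ratio of 1.59 ± 0.13 (edgeR adjusted p = 5.91e-15). Dnajb9 (ERdj4, a DnaJ co-chaperone that aids degradation of misfolded protein) was at 67.4, 78.4 and 114 in goblet-like and at 59.0, 98.5 and 134 in enterocyte-like cells. Its ranges overlapped, its log2 ratio of -0.21 ± 0.12 did not pass the test (edgeR adjusted p = 0.119), and it was higher in goblet-like cells in 1 of 6 libraries. With plain totals its direction turned, to a log2 ratio of 0.32 (edgeR adjusted p = 0.0205), higher in 5 of 6 libraries. It was called lower with 3 pools of mice and without HFD VSG villi, where 4695 of 12870 and 4138 of 11375 genes were lower.

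Manf, a small secreted ER protein that binds BiP, was at 285, 369 and 599 CPM in goblet-like and at 129, 163 and 260 in enterocyte-like cells, a log2 ratio of 1.20 ± 0.12 (edgeR adjusted p = 2.34e-12). Xbp1, the transcription factor of the IRE1 arm, was at 265, 289 and 295 against 161, 181 and 202, a log2 ratio of 0.66 ± 0.09. The goblet-like libraries lay closer together for Xbp1 than for the other genes, within 265 to 295, and above all enterocyte-like libraries. Herpud1, a membrane protein of the ER-associated degradation complex, was at 170, 214 and 253 against 111, 182 and 285, with overlapping ranges and a log2 ratio of 0.26 ± 0.12 that did not pass the test (edgeR adjusted p = 0.0545). It was called higher in other settings, among them DESeq2, at most 10% mitochondrial UMIs, at least 1500 genes, and without LFD sham crypts or HFD sham crypts.

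Free RNA and RNA of other cells were measured beside these values, by plain totals. In droplets with fewer than 100 UMIs, Hspa5 was at 223 to 488 CPM and Pdia4 at 17.0 to 48.3, below each goblet-like library. Transcripts of the 12 enterocyte markers summed to 2650 to 29970 CPM of goblet-like cells, against 69238 to 110664 of enterocyte-like cells. Markers of plasma and B cells, another secretory lineage, summed to 0 to 11.1 in goblet-like cells, with 6 of 8 detected and Mzb1 and Tnfrsf17 at 0. With 25% of each sum subtracted as free RNA, 8 of the 10 genes were higher in goblet-like cells, as were 4378 of 11495 genes.

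**Figure D3:**
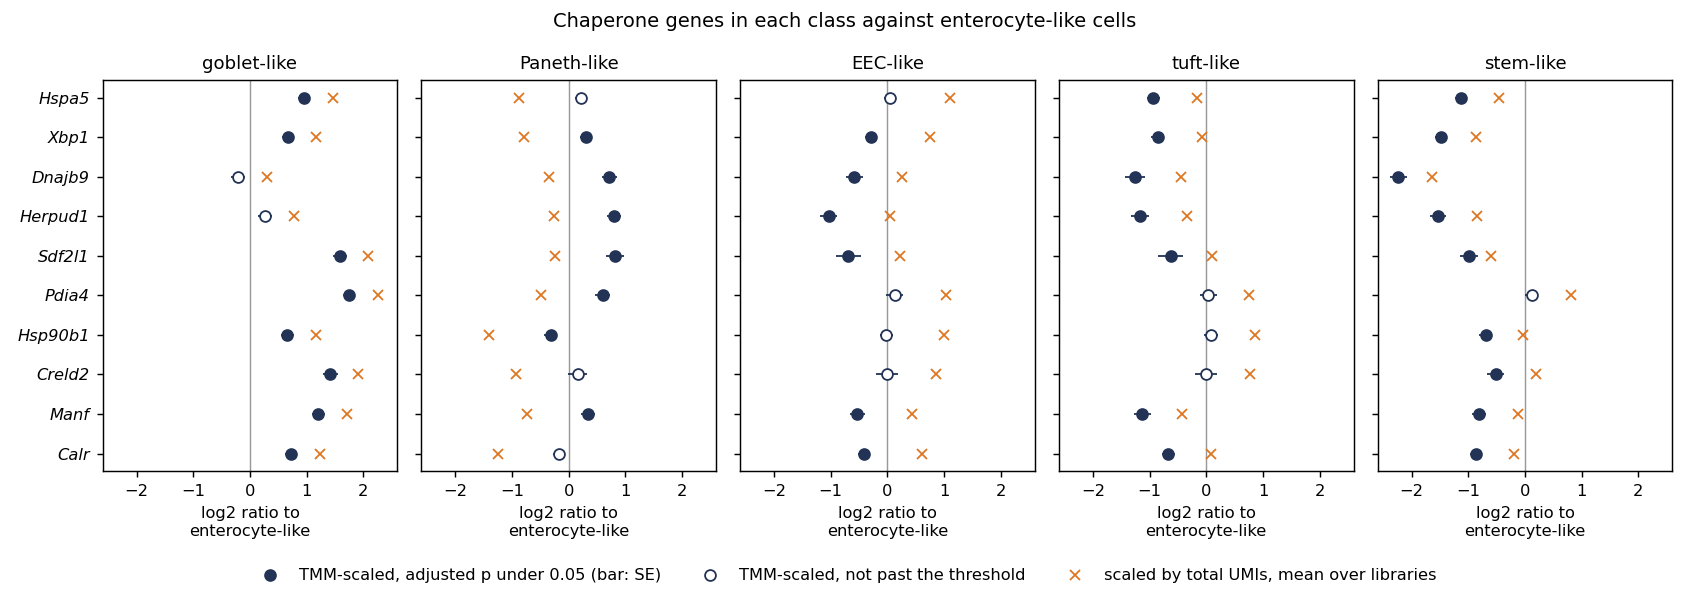
Log2 ratio of each gene in 5 classes to enterocyte-like cells; circles are edgeR estimates with TMM scaling (filled, adjusted p under 0.05; bar, SE) and crosses the mean over libraries with scaling by total UMIs. In goblet-like cells 8 circles are filled on the right of 0 and all 10 crosses are to the right; in Paneth-like cells circles and crosses fall on opposite sides of 0 for 8 of the 10 genes.

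In Paneth-like cells, 6 of the 10 genes were higher than in enterocyte-like cells and 1 was lower, where 33.8% of all genes were higher and 37.7% lower. Herpud1 was at 256, 312 and 365 CPM in Paneth-like cells, the highest of the classes and with no overlap with goblet-like cells, and its log2 ratio to enterocyte-like cells was 0.80 ± 0.13 (edgeR adjusted p = 6.18e-07). Dnajb9 was at 127, 160 and 225, a log2 ratio of 0.72 ± 0.13. These 2 genes, which did not pass the test in goblet-like cells in the main fit, were thus higher in Paneth-like cells in 6 of 6 libraries, but both ranges overlapped with that of enterocyte-like cells. Sdf2l1 (0.81 ± 0.15) and Pdia4 (0.60 ± 0.13) were higher in 6 of 6 libraries, Xbp1 (0.30 ± 0.10) in 5 and Manf (0.34 ± 0.12) in 4. With cells thinned to 2000 UMIs the calls for Sdf2l1 (0.56), Pdia4 (0.54) and Manf (-0.0099) were lost, and that for Manf was also lost without the replicate block (0.33), with 25% free RNA subtracted (0.35) and without HFD VSG crypts (0.22). Hsp90b1 was lower, at 405, 470 and 546 CPM and a log2 ratio of -0.32 ± 0.11 (edgeR adjusted p = 0.0123). This call was lost with DESeq2 (log2 ratio -0.0059), with thinned cells, without the replicate block, with 10% free RNA subtracted, at resolution 0.8 (0.0097) and without LFD sham villi (-0.10), HFD sham villi (-0.18) or HFD VSG villi (-0.17).

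The Paneth-like values depended on the scaling. The 12 Paneth markers, defensins among them, summed to 630943 to 683606 CPM of these cells by plain totals, and the TMM factors were 0.299 to 0.422. With plain totals the median of all genes moved from -0.05 to -1.15 and the counts became 0 members higher and 8 lower, where 14.9% and 66.8% of all genes were. Of the 10 genes, 8 were above the median of all genes. By plain totals the Paneth-like range of 9 of the 10 genes overlapped with that of free RNA in droplets with fewer than 100 UMIs, and that of Calr (128 to 212 CPM) lay below it (233 to 401). Among the genes called higher, Herpud1 was at 85.6 to 154 CPM in Paneth-like cells and 79.0 to 142 in droplets, Dnajb9 at 38.0 to 88.8 and 37.4 to 65.1, Sdf2l1 at 10.8 to 22.9 and 8.18 to 28.2, Pdia4 at 20.8 to 31.6 and 17.0 to 48.3, Xbp1 at 67.2 to 112 and 58.9 to 110.0, and Manf at 64.7 to 91.6 and 53.4 to 212. The part of free RNA in these calls was not tested beyond the subtraction of 10% and 25%, with which 7 and 5 members were higher, where 4194 of 11575 and 3519 of 11495 genes were. Median depth of the Paneth-like cells ranged from 3472 UMIs per cell in LFD sham crypts to 49331 in LFD sham villi.

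A direct comparison of the 2 secretory classes found 8 genes higher in goblet-like cells and 2 higher in Paneth-like cells, where 18.4% and 12.3% of all genes were. Creld2 (log2 ratio of goblet-like to Paneth-like cells 1.26 ± 0.17), Pdia4 (1.15 ± 0.13) and Hsp90b1 (0.98 ± 0.11) had the widest gaps, each higher in 6 of 6 libraries. Dnajb9 (-0.92 ± 0.13; edgeR adjusted p = 4.69e-07) and Herpud1 (-0.54 ± 0.13; edgeR adjusted p = 0.00127) were higher in Paneth-like cells in 6 of 6 libraries. The ranges did not overlap for 5 of the genes higher in goblet-like cells and for both of the others, where the same held for 5.21% and 3.92% of all genes. With cells thinned to 2000 UMIs the counts were 8 higher in goblet-like and 0 higher in Paneth-like cells, where 694 and 548 of 5238 genes were. With plain totals all 10 genes were higher in goblet-like cells, where the median of all genes moved to 1.69 and 88.5% of all genes were higher and 1.68% lower.

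EEC-like cells, which secrete peptide hormones, had 0 genes higher and 6 lower than enterocyte-like cells, where 31.2% and 39.0% of all genes were. Herpud1 was at 55.1, 96.8 and 109 CPM against 111, 182 and 285 in enterocyte-like cells, with no overlap (1 of the 10 genes, and 24.9% of all genes in this direction) and a log2 ratio of -1.04 ± 0.15 (edgeR adjusted p = 5.06e-08). Hspa5 overlapped, at 473, 811 and 1023 against 582, 775 and 1069, a log2 ratio of 0.05 with a 95% interval of -0.16 to 0.26. The other genes that passed were Sdf2l1 (-0.69 ± 0.22), Dnajb9 (-0.59 ± 0.15), Manf (-0.53 ± 0.13), Calr (-0.41 ± 0.11) and Xbp1 (-0.29 ± 0.10). These sums rest on 22 to 51 cells per library, and the EEC-like TMM factors were 1.47 to 1.82, so that with plain totals the median of all genes moved from -0.13 to 0.91 and the counts became 8 members higher and 0 lower, where 59.5% and 16.7% of all genes were. The counts also changed with DESeq2 (3 higher and 1 lower, with 5039 and 3231 of all genes), with cells thinned to 2000 UMIs (2 higher and 0 lower, with 1411 and 1816 of 5238 genes) and without HFD sham crypts (1 higher and 2 lower, with 4075 and 3823 of 11534 genes). Of the 10 genes, 4 were above the median of all genes.

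Tuft-like cells (5 libraries, since HFD sham crypts had 13 such cells) had 0 genes higher and 7 lower, where 33.2% and 33.8% of all genes were. Dnajb9 (-1.26 ± 0.18), Herpud1 (-1.16 ± 0.16) and Manf (-1.12 ± 0.15) had the largest differences, lower in 5 of 5 libraries. The ranges of 4 genes lay below those of enterocyte-like cells, as did those of 22.9% of all genes. Hsp90b1, at 486, 638 and 785 CPM against 470, 597 and 761, overlapped and did not pass (log2 ratio 0.08, 95% interval -0.15 to 0.32). With plain totals 3 members were higher and 1 lower, where 57.6% and 16.9% of all genes were.

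With TMM scaling the sum over the 10 genes was lowest in stem-like cells, and by median they were the lowest class for 6 genes (cycling progenitor-like cells were for Dnajb9 and Herpud1, tuft-like cells for Pdia4 and Manf). In stem-like cells 9 of the 10 genes were lower than in enterocyte-like cells and 0 higher, where 40.2% of all genes were lower and 39.3% higher, and the median over the 10 genes was -0.92 against 0.00 over all genes. Dnajb9 was at 12.3, 20.9 and 23.5 CPM against 59.0, 98.5 and 134, a log2 ratio of -2.23 ± 0.15 (edgeR adjusted p = 6.19e-18). Herpud1 (-1.54 ± 0.14), Xbp1 (-1.49 ± 0.10) and Hspa5 (-1.13 ± 0.11) followed, each lower in 6 of 6 libraries. The ranges of 8 of the 10 genes lay below those of enterocyte-like cells, as did those of 28.0% of all genes. Pdia4 stood apart from the other 9, at 33.4, 57.0 and 65.6 against 35.5, 46.6 and 67.4, with overlapping ranges and a log2 ratio of 0.12 that did not pass (95% interval -0.11 to 0.35). With plain totals 1 member was higher and 4 were lower, where 55.9% and 24.4% of all genes were.

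Over goblet-like, Paneth-like and EEC-like cells averaged with equal weight, 6 genes were higher than in enterocyte-like cells and 0 lower, where 38.0% and 40.7% of all genes were. They were Pdia4 (0.83 ± 0.10), Sdf2l1 (0.57 ± 0.13), Creld2 (0.52 ± 0.12), Hspa5 (0.41 ± 0.09), Manf (0.34 ± 0.10) and Xbp1 (0.23 ± 0.08). DESeq2, with a median of all genes of 0.31, called 10 members higher, where 5864 of 11592 genes were.

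The other genes of the pathway, taken as 9 lists of 129 genes, were set beside the members in goblet-like cells, where 40.3% of all genes were higher and 37.3% lower. Of 10 sensors and transcription factors of the response, 9 were higher and 1 lower than in enterocyte-like cells. Ern2, the epithelial form of the IRE1 sensor, was at 141, 165 and 229 CPM against 0.298, 0.556 and 1.25, and Creb3l4, a membrane-bound transcription factor, at 52.1, 103 and 141 against 0.586, 1.04 and 1.51. Neither gene's ranges overlapped, and both were also detected in Paneth-like cells, at medians of 92.9 and 65.4. Creb3l2, a related factor, was the 1 lower, at a log2 ratio of -1.46.

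Disulfide isomerases and oxidases had the highest median of the lists, 2.00, with 10 of 14 higher and 2 lower. Agr2, the isomerase that goblet cells need for mucin, was at 5555, 7443 and 12838 CPM against 10.3, 20.8 and 43.6 (log2 ratio 8.50), while P4hb, an isomerase that is also a subunit of the triglyceride transfer protein, was lower at 635, 679 and 895 against 1644, 1960 and 2333 (-1.45). Translocon and signal peptide genes were higher in 15 of 16 and lower in 0, with Sec11c, a signal peptidase subunit, at a log2 ratio of 1.93. N-glycosylation genes were higher in 9 of 12 and lower in 0 (median 1.14), with Rpn1 of the oligosaccharyl transferase at 1.57. Of 16 other ER chaperones, 10 were higher, led by Fkbp11 (6.20) and Dnajc10 (4.40), and 3 lower, among them Tor1a (-1.44) and Canx (-0.35), the membrane partner of Calr.

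Against the same shares of all genes, 40.3% higher and 37.3% lower, the later steps had these counts. Of 15 genes of ER-associated degradation tested, 9 were higher and 4 lower, with Edem2 (1.19) and Edem3 (1.07), which mark glycoproteins for removal, among the higher and Derl1 (-0.64) among the lower. Of 18 genes of COPII and Golgi transport, 9 were higher and 8 lower, with Tmed9 (3.31) and Kdelr3 (2.92) the highest, and Sar1b (-2.45) and Mia2 (-1.53), which serve the large lipid carriers of enterocytes, the lowest. In the PERK and Atf4 arm 6 of 10 were higher and 3 lower. Its higher genes were led by Phgdh (4.41) and Psat1 (3.24) of serine synthesis, and its lower genes were Trib3 (-2.85) and Ddit3 (-0.81), which mark a strong stress response, and Sesn2 (-0.66), named here to complete the count. Chaperones of the cytosol and mitochondria, which are not targets of the response, were higher in 10 of 15 and lower in 2, with a median of 0.60, led by Hspa1b (2.12) and Hspa1a (1.96), which are also induced by heat and handling. Their ranges overlapped, with Hspa1b at 0.819 to 133 CPM in goblet-like and 1.57 to 19.7 in enterocyte-like cells. The lower genes were Hspa8, with medians of 986 against 1294 CPM, and Dnaja1, with 284 against 574.

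**Figure D4:**
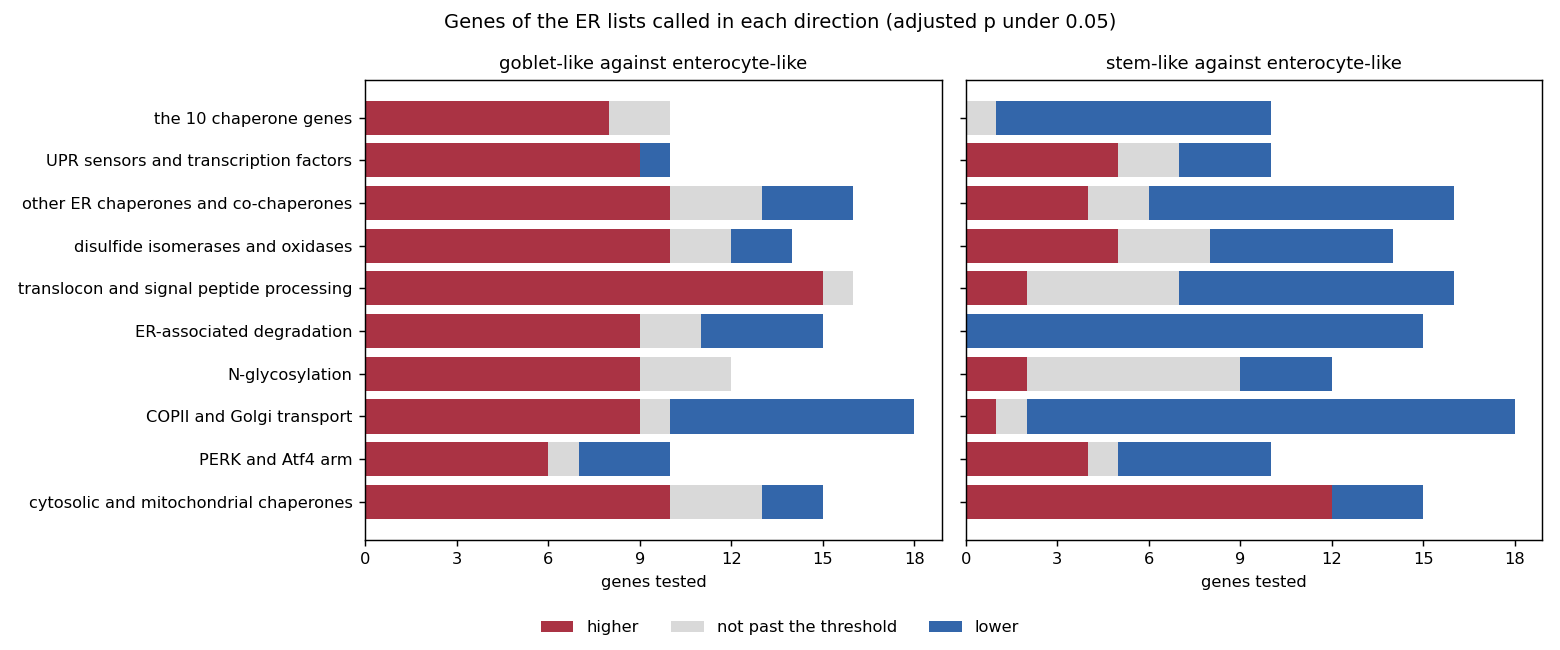
Number of genes of each list that were higher, lower or not past the threshold (edgeR adjusted p under 0.05) in goblet-like and in stem-like cells against enterocyte-like cells. Red bars fill most of the goblet-like panel, and in the stem-like panel the degradation list is blue for all 15 genes while 12 of 15 cytosolic and mitochondrial chaperones are red.

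In stem-like cells, where 39.3% of all genes were higher and 40.2% lower, the lists had the following counts, and differences between lists were not tested. All 15 degradation genes tested and 16 of 18 transport genes were lower than in enterocyte-like cells, beside the 9 members, whereas 12 of 15 chaperones of the cytosol and mitochondria were higher and 3 lower. The other lists were less one-sided. Sensors and transcription factors were higher in 5 of 10 and lower in 3, and disulfide isomerases and oxidases higher in 5 of 14 and lower in 6. The PERK and Atf4 arm had 4 of 10 higher and 5 lower, and N-glycosylation 2 of 12 higher and 3 lower. Of translocon genes 2 of 16 were higher and 9 lower, and of other ER chaperones 4 of 16 and 10. Paneth-like cells had 8 of 15 degradation genes higher and 3 lower, where 33.8% and 37.7% of all genes were.

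Across the 41 sums of class and library, the 45 pairs of members had a median Pearson r of 0.71 between their log2 levels, from 0.16 to 0.90, the highest between Dnajb9 and Herpud1. These sums share libraries and scaling, so the values are descriptions. The genes whose levels most resembled the members' mean, among 5712 ranked, were Pdia3 (r = 0.93), Sec23b (0.90), Gfpt1 (0.89), Sec61a1 (0.89), Rrbp1 (0.89), Tpd52 (0.87), Ssr3 (0.87), Tmem214 (0.86), Serp1 (0.86) and Edem3 (0.86). Pdia3 is the disulfide isomerase that works with Calr, and Sec61a1 and Ssr3 are parts of the translocon. From cell to cell within a library, with each cell thinned to 5000 UMIs, the median r over pairs of members was 0.15 to 0.24 in goblet-like cells of 5 libraries. It was 0.084 (LFD sham villi) and 0.026 (HFD sham villi) in Paneth-like cells of 2 libraries and 0.02 to 0.07 in enterocyte-like cells of 6. Such r also falls where a cell has fewer UMIs of the genes, and the levels of the members differed between classes. The part of level in these values was not tested. The highest pair in goblet-like cells was Hspa5 with Hsp90b1 or with Calr, at 0.43 to 0.63. Between members and cytosolic chaperones the median r was 0.0062 to 0.13 in goblet-like cells and 0.02 to 0.07 in enterocyte-like cells. In Paneth-like cells it was 0.098 in LFD sham villi and 0.025 in HFD sham villi.

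Between crypt-labelled and villus-labelled libraries, with the pool of mice as a block, 1 member differed in goblet-like cells. Sdf2l1 was lower in the crypt-labelled libraries, at a log2 ratio of -0.51 ± 0.17 (edgeR adjusted p = 0.0259), where 5.84% of all genes were lower and 12.1% higher. In enterocyte-like cells Pdia4 (-0.52 ± 0.12; edgeR adjusted p = 0.0253) and Creld2 (-0.44 ± 0.13; edgeR adjusted p = 0.0478) were lower, where 11.7% of all genes were lower and 6.34% higher. None of these 3 calls was made without the block, with 25% free RNA subtracted or without the LFD sham pair of libraries. The mix of clusters in the enterocyte-like class differed between fractions. In 1 cluster there were 834 (LFD sham), 612 (HFD sham) and 863 (HFD VSG) crypt-labelled and 322, 205 and 63 villus-labelled cells. By plain totals its medians were 16.1 CPM for Pdia4 and 11.3 for Creld2, against 28.9 to 44.7 and 15.1 to 21.0 in the other large enterocyte-like clusters. The part of this mix was not tested.

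Diet and surgery could not be tested, because each group had 1 pooled library per fraction. The values are log2 ratios of CPM by plain totals, without TMM, between 2 libraries, with 95% intervals that cover counting error only. A lower CPM of these genes can also mean more UMIs of other genes, and medians of all genes are given for this reason. The HFD sham libraries serve in both comparisons. The paper estimated a larger share of background RNA in both HFD sham libraries than in any other library. The ratios use raw counts, and free RNA was subtracted only as an alternative, at the same share for all libraries. The part of this difference in the ratios was not tested.

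From LFD sham to HFD sham, most members had ratios below 0 and below the median of all genes in enterocyte-like and goblet-like cells. In enterocyte-like cells 9 of 10 had a log2 ratio below 0 in the crypt-labelled and 10 of 10 in the villus-labelled libraries, with medians of -0.31 and -0.34 against medians of all genes of 0.00 and -0.01. Beyond 0.5 on the log2 scale, 2 members were lower in the crypt-labelled and 3 in the villus-labelled libraries, where 6.67% and 8.21% of all genes were. In goblet-like cells 10 of 10 and 9 of 10 were below 0, with medians of -0.23 and -0.29 against 0.02 and -0.02 for all genes, and beyond 0.5 there were 2 and 1, where 5.24% and 4.32% of all genes were. In stem-like cells the medians over members with enough UMIs were -0.38 and -0.23, against -0.0054 and 0.029 over all genes, and in cycling progenitor-like cells -0.22 in both, against 0.016 and 0.010. The EEC-like medians were -0.086 over 4 members in crypts and -0.33 over 7 in villi, against -0.085 and -0.039 over all genes. In crypts the median of the 4 measured members thus lay with the typical gene, and all 4 were below 0. Paneth-like medians were 0.12 and 0.10, against 0.00 and 0.19, and the tuft-like median, measured in the villus-labelled libraries, was 0.11 against 0.055.

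Creld2 was the member with a gap beyond 0.5 in both classes and both fractions. In enterocyte-like cells it went from 23.1 CPM in LFD sham to 13.6 in HFD sham crypts (log2 ratio -0.77, 95% interval -0.96 to -0.58), and from 29.8 to 18.8 in villi (-0.66, -0.84 to -0.49). In goblet-like cells it went from 80.3 to 47.5 in crypts (-0.76, -1.26 to -0.28) and from 109 to 75.8 in villi (-0.52, -0.74 to -0.31). With each cell thinned to 2000 UMIs the goblet-like ratios became -0.13 and -0.04, and the enterocyte-like ratios -0.90 and -0.49. Creld2 was detected in 6.86 to 14.98% of thinned goblet-like cells per library. Before thinning there were 105 to 175 goblet-like cells per crypt-labelled library and 305 to 349 per villus-labelled library. The thinned goblet-like ratios thus rest on few UMIs and cannot show whether the Creld2 gap holds at equal depth. Paneth-like cells had ratios above 0 for Xbp1, which was at 71.4 CPM in LFD sham and 102 in HFD sham crypts (log2 ratio 0.52), and at 72.9 and 112 in villi (0.62), where 9.63% and 22.8% of all genes were higher beyond 0.5 and the medians of all genes were 0.00 and 0.19. With TMM scaling these ratios were 0.42 and 0.36, and with thinned cells 0.18 and 1.20. Both thinned values, for crypts and for villi, rest on means below the minimum of 50 UMIs used for the counts of pairs. Median depth of these Paneth-like cells went from 3472 to 17552 UMIs in crypts and from 49331 to 7671 in villi, and the part of depth was not tested.

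From HFD sham to HFD VSG, Hspa5 was lower and Manf higher in the villus-labelled libraries across most classes. Hspa5 in goblet-like cells was at 1934 CPM in HFD sham and 1117 in HFD VSG (log2 ratio -0.79, 95% interval -0.84 to -0.75), and in enterocyte-like cells at 669 and 475 (-0.49, -0.52 to -0.47). In stem-like cells it was at 523 and 244 (-1.10, -1.21 to -0.98). The ratio was below 0 in 7 of 7 classes and beyond -0.5 in 5. All genes that low made up 17.1% in enterocyte-like, 28.7% in goblet-like, 41.9% in Paneth-like, 18.2% in EEC-like, 26.3% in tuft-like, 33.4% in stem-like and 35.2% in cycling progenitor-like cells. Relative to the median of all genes in each class, it lay between -0.31 and -0.83, and with TMM scaling the goblet-like ratio was -0.50. In the crypt-labelled libraries the ratio was below 0 in 6 of 6 classes, from -1.04 in EEC-like cells to -0.00 in goblet-like cells.

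Manf was at 119 CPM in enterocyte-like cells of HFD sham villi and 212 in those of HFD VSG (log2 ratio 0.83, 95% interval 0.77 to 0.88), at 173 and 343 in EEC-like cells (0.98, 0.59 to 1.39) and at 105 and 176 in tuft-like cells (0.74, 0.27 to 1.23). These 3 of 7 classes were beyond 0.5, where 21.6%, 21.9% and 21.2% of all genes were. In goblet-like cells it was at 457 and 568 (0.31, 0.23 to 0.39), and in stem-like cells at 135 and 114 (-0.24, -0.45 to -0.02). Relative to the median of all genes Manf was above it in 7 of 7 classes. In the crypt-labelled libraries the ratios for Manf were -0.23 to 0.30.

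Xbp1 was below 0 in 7 of 7 classes of the villus-labelled libraries (-0.89 to -0.26) and Pdia4 in 5 of 5 with enough UMIs (-1.07 to -0.00), while Herpud1 ranged from -0.69 in enterocyte-like cells to 0.42 in EEC-like cells. Relative to the median of all genes in each class, Xbp1 lay between -0.84 and -0.11 and Pdia4 between -0.80 and -0.012. Ratios of both signs were thus found among the members, with 4 pairs of member and class beyond 0.5 higher and 20 lower by plain totals and 10 higher and 8 lower with TMM. By plain totals the pairs were drawn from 10 members in each class, except 7 in EEC-like and 6 in tuft-like cells. By plain totals 17.1% (enterocyte-like) to 41.9% (Paneth-like) of all genes of a class were lower beyond 0.5. Higher were 480 of 9130 genes (cycling progenitor-like) to 379 of 1732 (EEC-like). Shares of all genes with TMM or thinned cells are not given here. Whether the members differed from all genes in these counts was not tested. HFD VSG villi were the deepest library, where a cell had 30557 UMIs at the median (HFD sham villi, 13233), and came from 2 mice in place of 3. With cells thinned to 2000 UMIs the goblet-like ratio for Hspa5 was -0.82 and the enterocyte-like ratio for Manf 0.75, while the pairs beyond 0.5 went to 2 higher and 14 lower. The part of depth in these ratios was not tested.

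**Figure D5:**
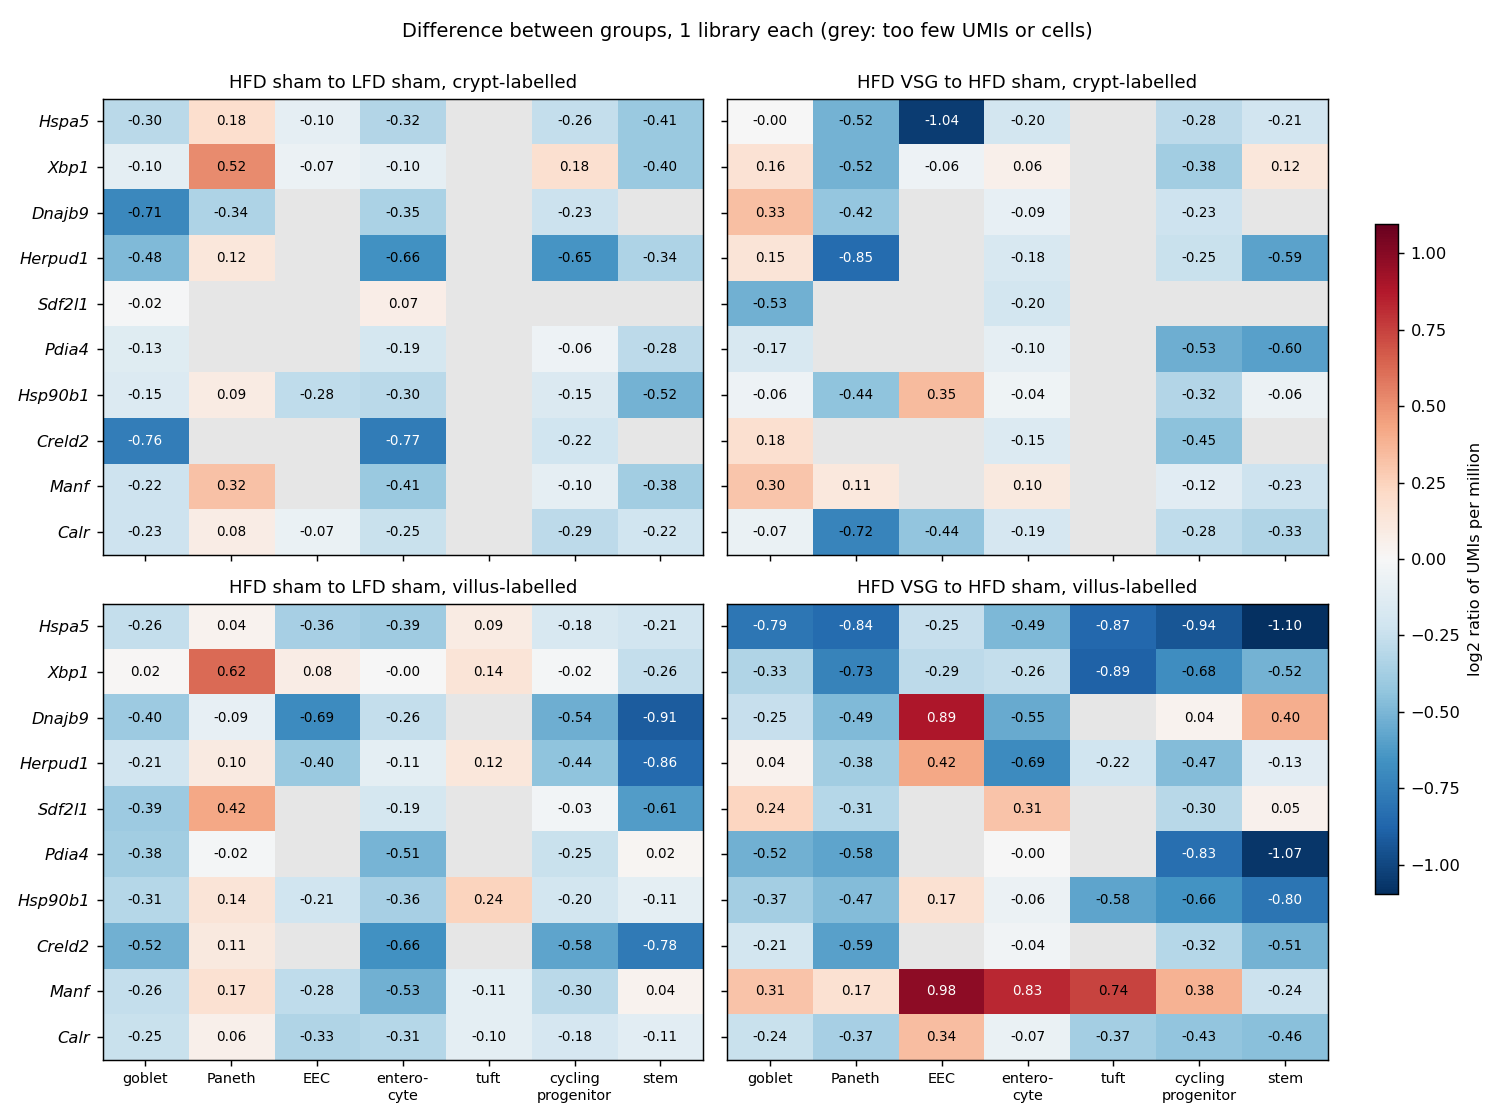
Log2 ratio of CPM between 2 libraries for each gene (rows) and class (columns), red above 0 and blue below, grey where a gene or class had too few UMIs or cells; 1 library per group and no test. The Manf row is red in 6 of 7 classes of the HFD VSG to HFD sham panel for villus-labelled libraries, where the Hspa5 row is blue in 7 of 7.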

How the data were processed

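Single-cell RNA libraries were made by the authors with 10x Genomics 3′ chemistry from pooled jejunal epithelium and processed, per the labels and the submitters' processing notes, with Cell Ranger 6.0.0 against mm10. The deposited values are UMI counts per gene and barcode, before and after the caller of cells. The raw counts were used; no normalized values were.

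Barcodes with at least 750 genes and at most 20% mitochondrial UMIs were kept, and the highest doublet scores (scanpy 1.11.5, a share rising with the number of called barcodes) were removed. Cells were integrated over libraries on 2000 variable genes with Seurat 5.3.0 (sctransform 0.4.2, 30 components, resolution 0.4), leaving out the members and the pathway lists, and clusters were named from marker lists. Clusters without a clear name and immune-like cells stayed out. The members and all lists were chosen with earlier results of these data known. Called barcodes held 60522766 to 155522445 UMIs per library.

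UMIs were summed by class and library (at least 20 cells) and tested with edgeR 4.0.16 (quasi-likelihood, TMM, library as a block; R 4.3.3), with Benjamini-Hochberg adjustment over all genes and a threshold of 0.05. DESeq2 1.42.0 was an alternative. Class and fraction share their mice: both fractions of a group are the same pool, so the pool was the block between fractions, and 3 pools were an alternative to 6 libraries. Ratios between groups used genes averaging 50 UMIs or more over the libraries of a class and fraction, scaling by totals, and exact 95% intervals, which cover counting error only. UMIs in droplets under 100 UMIs stood for free RNA. Named pathway genes were the 2 highest and 2 lowest called in goblet-like cells of each list, and like genes the 10 with the highest correlation among those of at least 20 CPM.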

Additional observations from a re-analysis of the deposited data

Results flagged for a closer look

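Of 60 sets of library values examined, 3 had 1 library far from the others, by a measure that chance alone meets in about 1 in 20 sets, so chance gives about 3 such sets. Herpud1 in goblet-like against enterocyte-like cells had a log2 ratio of 1.19 in HFD VSG villi, where the other libraries had -0.22 to 0.29. The enterocyte-like level of Herpud1 was the lowest and the goblet-like level the highest of the 6 in that library, at 111 and 253 CPM. Herpud1 in goblet-like against Paneth-like cells had a log2 ratio of -1.10 in HFD sham crypts, where the others had -0.54 to -0.26, and that library held 33 Paneth-like cells. Calr in EEC-like against enterocyte-like cells had a log2 ratio of 0.084 in HFD VSG villi, where the others had -0.63 to -0.43, and that sum rested on 30 cells.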

How the results depend on the processing

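Class differences rested on 6 libraries from 3 pools, and some sums (EEC-like, tuft-like and crypt-labelled Paneth-like cells) rested on few cells. Among the recomputed single-gene values for classes and fractions, 1153 kept their direction and side of the threshold, 95 lost the call, 36 gained one and 35 changed sign. For EEC-like and tuft-like cells, the mean of the secretory classes and the fractions, only members called in the main fit were counted. Calls gained by other members there, as with DESeq2, are not in these counts. A value without an adjusted p counted as kept if its direction held.

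With scaling by totals, members higher in Paneth-like cells went to 0, and pathway genes higher to 29. Members lower went to 0 in EEC-like, 1 in tuft-like and 4 in stem-like cells, and pathway genes lower to 17, 26 and 41. For goblet-like against Paneth-like cells all genes called went to 10451 and pathway genes higher to 121. Under totals the log2 ratio of Dnajb9 in goblet-like cells became 0.32. In Paneth-like cells the ratios became -0.88 for Hspa5, -0.79 for Xbp1, -0.36 for Dnajb9, -0.27 for Herpud1, -0.29 for Sdf2l1, -0.52 for Pdia4, -0.95 for Creld2 and -0.76 for Manf. In EEC-like cells they became 0.76 for Xbp1, 0.47 for Dnajb9, 0.036 for Herpud1, 0.35 for Sdf2l1, 0.51 for Manf and 0.65 for Calr, in tuft-like cells 0.16 for Sdf2l1 and 0.14 for Calr, and in stem-like cells 0.15 for Creld2. For goblet-like against Paneth-like cells they became 0.68 for Dnajb9 and 1.06 for Herpud1. These shifts follow the move of the median of all genes.

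With cells thinned to 2000 UMIs, which leaves fewer UMIs, all genes called went to 3738 in goblet-like, 3017 in Paneth-like, 3227 in EEC-like, 3058 in tuft-like and 3839 in stem-like cells, 3786 over the secretory classes and 1242 for goblet-like against Paneth-like cells. Members lower in EEC-like cells went to 0, and pathway genes lower to 29 in EEC-like, 38 in tuft-like and 46 in stem-like cells. Ratios that changed sign were Dnajb9 in goblet-like cells (0.013), Creld2 (-0.073) and Manf (-0.0099) in Paneth-like cells, Xbp1 (0.076), Manf (0.14) and Calr (0.030) in EEC-like cells, and Creld2 in stem-like cells of the villi between HFD sham and LFD sham (0.14).

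Members higher went from 0 to 3 in EEC-like, 1 in tuft-like and 1 in stem-like cells with DESeq2, where 5039, 4984 and 5547 of 11592 genes were higher, and to 2 in EEC-like and 2 in tuft-like cells with thinning (1411 and 1332 of 5238 genes). DESeq2 called 1 member and 41 pathway genes lower in EEC-like cells and 10 members higher over the secretory classes, with Calr in Paneth-like (0.13) and Xbp1 (0.14) and Calr (0.024) in EEC-like cells changing sign. At resolution 0.8 Hsp90b1 (0.0097) and Calr (0.13) changed sign in Paneth-like cells, and at 10% mitochondrial UMIs Pdia4 did in stem-like cells (-0.13). Classes by marker share gave 3 members lower in EEC-like cells, where 3813 of 10962 genes were. Without the Paneth-like cells of LFD sham crypts and HFD sham villi, a choice made after seeing the data, 3 members were lower in EEC-like cells, 26 pathway genes were higher in goblet-like than in Paneth-like cells, and Calr in Paneth-like cells was at 0.033. The count of 3 is given only as a change from the 6 of the main fit, without the share of all genes. The cause of these changes was not tested.

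The paired fit with the library or pool as a block was the main one. With no replicate block, goblet-like against Paneth-like cells had 2098 genes called and 25 pathway genes higher. Between fractions without the block, 0 members were lower in goblet-like or enterocyte-like cells, with 727 and 0 genes called and 1 and 0 pathway genes lower. Other fits between fractions gave 0 members lower with DESeq2 (910 genes called, 8 pathway genes lower) and with 25% free RNA subtracted (470 and 2) in goblet-like cells, and in enterocyte-like cells 0 members, 26 genes and 0 pathway genes with 25% free RNA subtracted and 3308 genes with no low count filter. With 25% free RNA subtracted, 5480 genes were called between goblet-like and Paneth-like cells.

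Leaving out each library in turn gave 2 to 6 members lower in EEC-like cells, lowest without HFD sham crypts, and 24 to 37 pathway genes higher in goblet-like than in Paneth-like cells. All genes lower in EEC-like cells were 3642 of 11375 (without HFD VSG villi) to 4519 of 12060 (without LFD sham crypts), and 3823 of 11534 without HFD sham crypts. Calr in Paneth-like cells ranged from -0.20 without LFD sham crypts to 0.063 without LFD sham villi. Leaving out each pair of libraries gave 0 to 1 members, 766 to 1580 genes and 2 to 17 pathway genes lower or called between fractions of goblet-like cells, and 0 to 3 members, 1670 to 3180 genes and 19 to 44 pathway genes in enterocyte-like cells, with no member lower without LFD sham in either.

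Pairs of member and class beyond 0.5 from LFD sham to HFD sham were 1 higher and 6 lower in crypts and 1 higher and 11 lower in villi. In crypts 10 members had enough UMIs in enterocyte-like and goblet-like, 7 in Paneth-like and stem-like, 4 in EEC-like and 9 in cycling progenitor-like cells. In villi 10 did in each class, except 7 in EEC-like and 6 in tuft-like cells. All genes lower beyond 0.5 by plain totals in crypts were 656 of 9841 in enterocyte-like, 231 of 4408 in goblet-like, 124 of 955 in Paneth-like, 142 of 685 in EEC-like, 207 of 3231 in stem-like and 276 of 5115 in cycling progenitor-like cells. In villi, in the same order, they were 806 of 9816, 346 of 8010, 289 of 4148, 124 of 1732, 421 of 8140 and 310 of 9130, with 92 of 2069 in tuft-like cells. All genes higher, in the same order, were 577, 261, 92, 71, 221 and 305 of these totals in crypts. In villi they were 511, 198, 944, 120, 412 and 373, with 145 in tuft-like cells. The higher pairs in crypts went to 3 with 25% free RNA subtracted and to 0 at 10% mitochondrial UMIs, with thinning, at a size of 1 or with TMM scaling, and those in villi to 2 and 4 with 10% and 25% free RNA subtracted and to 0 with thinning, at a size of 1 or with TMM. A pair also leaves the count when thinning takes its gene below the mean of 50 UMIs. Xbp1 in Paneth-like cells of the villi left it in this way, with a ratio still beyond 0.5. The lower pairs went to 3 with thinning and 0 at a size of 1 in crypts, and to 7 at 10% mitochondrial UMIs, 2 with thinning and 0 at a size of 1 in villi. From HFD sham to HFD VSG the pairs were 0 higher and 9 lower in crypts and 4 higher and 20 lower in villi. All genes lower in crypts, in the order above, were 230, 432, 214, 121, 137 and 156, and all genes higher 633, 473, 40, 208, 189 and 261. In villi 1676, 2301, 1740, 315, 2719 and 3215 were lower, with 544 in tuft-like cells. Higher in villi were 2121, 521, 470, 379, 520 and 480, with 438 in tuft-like cells. The totals are those given above, and shares of all genes in the other settings are not given. In crypts the higher went to 1 with thinning or TMM, and the lower to 5 at 10% mitochondrial UMIs, 3 with thinning and 1 at a size of 1. In villi the higher went to 2 with thinning, 0 at a size of 1 and 10 with TMM, and the lower to 2 at a size of 1 and 8 with TMM.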

Other observations

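Some of the other pathway lists in the remaining secretory classes had the following counts against enterocyte-like cells, and differences between lists were not tested. In Paneth-like cells, where 33.8% of all genes were higher and 37.7% lower, 8 of 10 sensors and transcription factors were higher and 1 lower, with a median log2 ratio of 1.40, and 11 of 14 disulfide isomerases and oxidases were higher and 2 lower, with a median of 1.72. Translocon genes were higher in 12 of 16 and lower in 1. Between goblet-like and Paneth-like cells 0 of 10 genes of the PERK and Atf4 arm were higher in goblet-like and 6 higher in Paneth-like cells, where 18.4% and 12.3% of all genes were, with a median of -0.68 against 0.07 for all genes. Genes of all the pathway lists together that were higher in Paneth-like than in goblet-like cells went from 29 to 0 with plain totals and to 6 with cells thinned to 2000 UMIs, so the 6 calls of this arm were lost with plain totals. In EEC-like cells 14 of 18 transport genes were lower and 1 higher, where 39.0% and 31.2% of all genes were, and in tuft-like cells 16 were lower and 1 higher, where 33.8% and 33.2% were, with medians of -1.50 and -1.43. Translocon genes were lower in 11 of 16 and higher in 1 in both classes. Other lists went the other way. In EEC-like cells 6 of 10 sensors and transcription factors were higher and 1 lower (median 0.88). There 7 of 14 disulfide isomerases and oxidases were higher and 4 lower, and 5 of 10 genes of the PERK and Atf4 arm were higher and 3 lower. In tuft-like cells 5 of 10 sensors and transcription factors were higher and 1 lower. These scales carry the shift with totals given above for each class.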
